A study of Mus musculus with 6 samples.

Results

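Chemokines and colony stimulating factors are secreted proteins through which tissue cells recruit and sustain leukocytes, and 10 genes of this group were followed in a mouse breast cancer line kept under hydrogen peroxide. They were taken by name from a table of 24454 genes, and all 10 had a row matched through the mouse gene number. They are the CC chemokine gene Ccl2, the CXC chemokine genes Cxcl1, Cxcl2, Cxcl5 and Cxcl16, the interleukin gene Il33, the colony stimulating factor genes Csf1, Csf2 and Csf3, and Csf1r, the receptor gene for the Csf1 product. The line, MTflEcad, is epithelial and comes from a mammary tumour of the MMTV-Neu strain, in which a mammary tumour virus promoter drives the Neu oncogene. The PBS group is the untreated line with PBS and 0 µM H2O2. The I80 and DI150 groups are MTflEcad cells given H2O2 daily for 7 months, at 80 µM and at 150 µM. All groups thus share the Neu-driven tumour origin and the line. RNA of each group was sequenced in 2 libraries described as biological duplicates, and since each dose is 1 line, dose and line cannot be told apart. Nothing says that the duplicates were separate long-term cultures, so the p-values reflect only how far libraries of a group differ, which may be technical.

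CCL2 draws monocytes through the receptor CCR2, while CXCL1, CXCL2 and CXCL5 carry an ELR motif and draw neutrophils through CXCR2. CSF1 keeps macrophages alive through CSF1R, CSF3 (G-CSF) drives the making of neutrophils, and CSF2 (GM-CSF) acts on both lineages. CXCL16 is made as a membrane protein that is shed and binds CXCR6, and IL-33 is a nuclear alarmin of epithelium that signals through ST2, the product of Il1rl1. Many of these genes are known targets of the transcription factor NF-kB, which binds short GC-rich sites in their promoters. Mammary tumours are known to attract macrophages and neutrophils with such factors.

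The 3 promoters shown are those of the members in the RefSeq promoter table of GRCm38.p6 that hold a match to the NF-kB motif, searched as GGG, then any 3 bases, then TTCC. They cover the 250 bases before the RefSeq start, read 5′ to 3′ on the strand of the gene, with matches on either strand in capitals. The table had windows for 5 of the 10 members (Cxcl1, Cxcl2, Il33, Csf1 and Csf2).
Cxcl1, chr5:90890995-90891244, plus strand: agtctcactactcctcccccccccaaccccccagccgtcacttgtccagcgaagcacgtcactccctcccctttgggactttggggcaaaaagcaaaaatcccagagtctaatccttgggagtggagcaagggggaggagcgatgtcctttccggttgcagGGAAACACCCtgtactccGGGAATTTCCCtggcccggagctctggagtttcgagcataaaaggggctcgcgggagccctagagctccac
Cxcl2, chr5:90903649-90903898, plus strand: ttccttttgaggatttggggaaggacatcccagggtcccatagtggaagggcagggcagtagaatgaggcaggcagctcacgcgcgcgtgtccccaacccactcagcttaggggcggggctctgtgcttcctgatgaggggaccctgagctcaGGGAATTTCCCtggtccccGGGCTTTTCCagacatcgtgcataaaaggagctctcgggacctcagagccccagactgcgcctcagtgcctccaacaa
Csf1, chr3:107760470-107760719, minus strand: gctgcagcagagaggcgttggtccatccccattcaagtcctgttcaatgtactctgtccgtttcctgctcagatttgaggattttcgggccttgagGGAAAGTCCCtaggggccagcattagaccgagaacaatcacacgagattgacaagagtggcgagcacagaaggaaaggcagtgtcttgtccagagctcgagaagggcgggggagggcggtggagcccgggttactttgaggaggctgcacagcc
Cxcl1 held 3 matches, which begin 89, 71 and 70 bases before its start, and Cxcl2 held 3, at 97, 96 and 78 bases. In each gene the neighbouring pair is 2 overlapping matches on opposite strands, offset by 1 base, and the stretch they cover has the same letters in both promoters. Csf1 held 1 match, at 154 bases. Of 32851 promoters of the table, 4.65% held a match in the same 250 bases. No member window held the AP-1 motif TGANTCA, where N is any base, found in 6.75% of promoters, or the antioxidant response element TGACNNNGC, found in 10.2%. A match describes the letters of the window and shows no binding.

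The libraries held 21017849 to 26608715 reads assigned to genes. Levels are given as CPM, reads of a gene per 1000000 assigned reads. Of 12 epithelial marker genes, 12 reached 1 CPM in PBS and 10 in each treated line, where Krt19 had no read. Their summed level was 10840 to 10910 CPM in PBS, 6101 to 6326 CPM in I80 and 6456 to 6911 CPM in DI150. By the test described below, 1 of these 12 rose and 9 fell in I80, and 2 rose and 9 fell in DI150. Among all tested genes, 32.3% rose and 34.2% fell in I80, and 32.7% rose and 36.1% fell in DI150. The sums include Erbb2, with means of 596.8 CPM in PBS, 2094.5 CPM in I80 and 2641.8 CPM in DI150. Krt7 had means of 3261.1, 648.1 and 405.0 CPM in that order. The part of these markers in the results was not tested. Neutrophil, lymphocyte and endothelial marker lists summed to at most 2.11 CPM in any library, and 6 adipocyte markers to at most 0.162 CPM in PBS and I80 but 11.8 to 13.6 CPM in DI150, through Lpl, the lipoprotein lipase gene, which had no read in PBS or I80. The 10 fibroblast markers summed to 22.7 to 25.6 CPM, with changes both ways. Of them Col1a2 fell from 15.3 and 15.3 CPM in PBS to 0 in the treated libraries, while Pdgfra rose 2.81-fold in I80 and 3.54-fold in DI150 and Col1a1 4.22-fold and 1.77-fold. The second PBS library was the higher of the pair for 8 of the 10 members. Differences were tested with limma on log2(CPM + 0.5) over the 11428 genes whose mean reached 1 CPM, and a gene is said to rise or fall at an adjusted p under 0.05. Of the 10 members 6 were tested (Ccl2, Cxcl1, Cxcl5, Csf1, Csf1r and Csf3). Ccl2 and Csf1r passed this filter only through the groups in which they were high. Likewise, other named genes with means under 1 CPM in the remaining groups, such as Ccl5, Ccl9 and Ppbp, passed only through their high group. Il33, at a mean of 0.840 CPM, and the scarce Cxcl2, Cxcl16 and Csf2 did not pass.

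**Figure D1:**
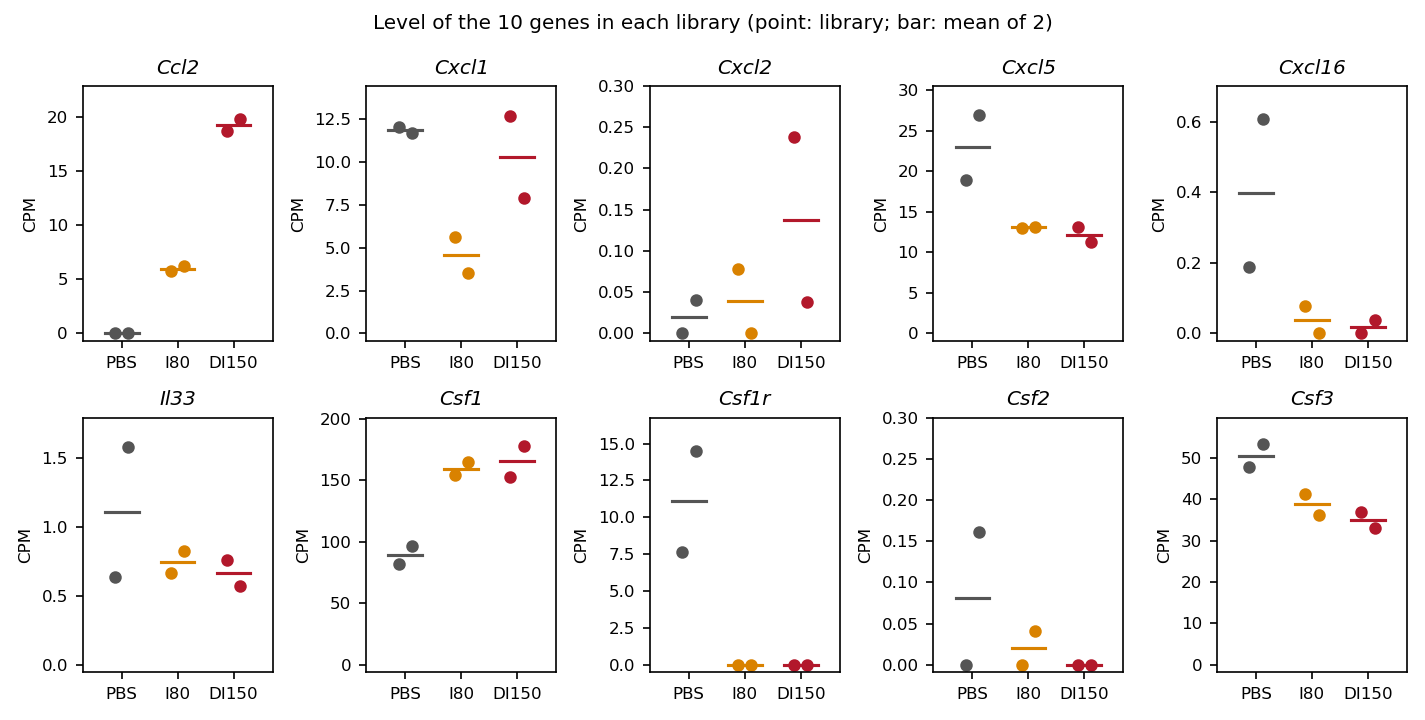
CPM of the 10 genes in each of the 6 libraries, on a linear axis from 0 that differs between panels. Points are libraries and bars are the mean of 2. Ccl2 climbs from under 0.1 CPM in PBS to 19.2 CPM in DI150, and Csf1r is at 0 in all 4 treated libraries.

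Ccl2, the monocyte attractant, was almost silent in PBS and present in both treated lines. It had 2 and 1 reads in PBS (0.0752 and 0.0404 CPM), 5.77 and 6.18 CPM in I80, and 18.7 and 19.8 CPM in DI150. The 3 groups did not overlap, and the order was PBS, I80, DI150. Against the 3 PBS reads, the ratio of pooled reads was 102.2 for I80 (exact 95% interval 34.6 to 498.5) and 329.8 for DI150 (112.5 to 1602), intervals that cover counting error alone. On the log2(CPM + 0.5) scale the rise was 3.54 ± 0.14 (SE) in I80 and 5.14 ± 0.14 in DI150, with limma adjusted p of 6.95e-07 and 1.02e-07. DI150 stood 3.21-fold above I80 (limma adjusted p = 0.000203). On GRCm38, Ccl2 (gene 20296) occupies chromosome 11 from 82035577 to 82037452.

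Csf1r, the tyrosine kinase receptor by which macrophages sense CSF1, was detected in PBS alone. Its PBS libraries had 204 and 359 reads, 7.67 and 14.5 CPM, and no treated library had a read. With a floor of 3 reads per library, Csf1r was at least 92.2-fold lower in I80 and at least 86.3-fold lower in DI150 (limma adjusted p = 7.23e-06 and 6.54e-06). Of 16 macrophage markers, 7 (Adgre1, Itgam, Lyz2, C1qa, C1qb, C1qc and Tyrobp) had no read in PBS and Ptprc was at 0.263 and 0.243 CPM. The 3 markers that reached 1 CPM in PBS were Csf1r, Cd14 and Cd68, with Cd68 at 1.84 and 2.43 CPM. The list summed to 86.7 and 102.8 CPM in PBS, 22.7 to 27.2 CPM in I80 and 63.0 to 74.8 CPM in DI150, mostly from Cd14, a co-receptor for lipopolysaccharide. Without Csf1r and Cd14 the sums were 2.29 to 3.20 CPM in PBS, 2.61 to 2.80 in I80 and 2.25 to 2.33 in DI150. In bulk RNA, fewer cells with a transcript and less of it per cell cannot be told apart. Csf1r lies on chromosome 18, and in the GENCODE M21 annotation 15.1% of its exon bases overlap exons of Hmgxb3 on the opposite strand. By RefSeq positions Hmgxb3 lies 0.138 kb beyond Csf1r. Hmgxb3 had 107.4 and 94.8 CPM in PBS, and the treated libraries ran from 77.3 to 106.5 CPM. Pdgfrb, which lies 20.5 kb away and encodes a related receptor, was at 0 in all 6 libraries.

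Csf1, the ligand, moved the other way from its receptor. Csf1 stood at 82.1 and 97.0 CPM in PBS, 154.2 and 165.0 CPM in I80, and 153.1 and 178.1 CPM in DI150. Both treated lines lay above PBS without overlap, and their own ranges overlapped. The rise was 1.78-fold in I80 and 1.85-fold in DI150 (limma adjusted p = 0.000259 and 0.000179), and the DI150 minus I80 difference was 0.05 on the log2 scale, with a 95% interval from -0.20 to 0.29 (limma adjusted p = 0.734). Il34, the other ligand of CSF1R, fell. It had 24.5 and 28.0 CPM in PBS, 1.52 and 1.20 CPM in I80, and 8.37 and 5.91 CPM in DI150, 19.3-fold lower in I80 and 3.68-fold lower in DI150 (limma adjusted p = 1.75e-06 and 8.67e-05). The DI150 libraries lay 5.26-fold above those of I80 (limma adjusted p = 0.000242). Csf1 (gene 12977) occupies chromosome 3 from 107741048 to 107760469. Ahcyl1, the nearest gene on one side of it, rose as well, by 0.62 on the log2 scale in I80 and by 1.08 in DI150.

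Csf3, the gene of the neutrophil growth factor G-CSF, was expressed in every library and fell modestly. It stood at 47.7 and 53.2 CPM in PBS, 41.2 and 36.2 CPM in I80, and 36.8 and 33.1 CPM in DI150. PBS lay above both treated lines, whose values overlapped. The fall was 1.30-fold in I80 (limma adjusted p = 0.0134) and 1.44-fold in DI150 (limma adjusted p = 0.00277). The I80 call was lost without PBS replicate 2 (limma adjusted p = 0.0773) or without I80 replicate 2 (0.114), fits in which the lone library is assumed to vary like the other groups. The DI150 minus I80 difference was -0.14, with a 95% interval from -0.39 to 0.10 (limma adjusted p = 0.299). Csf3 (gene 12985, chromosome 11 at 98700183 to 98703631) ends 0.966 kb from Med24, a Mediator subunit gene that rose, from 436.6 and 423.8 CPM in PBS to 791.9 to 868.6 CPM in the treated libraries. Csf2, the GM-CSF gene (chromosome 11 at 54247270 to 54249899), was near the limit of detection, with 4 reads in PBS, all in 1 library, 1 read in I80 and none in DI150.

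Cxcl5 and Cxcl1, the tested neutrophil attractants among the members, were lower in I80 than in PBS, and only Cxcl5 passed the test in DI150 as well. Cxcl5 stood at 18.9 and 27.0 CPM in PBS, 13.0 and 13.2 CPM in I80, and 13.1 and 11.3 CPM in DI150. The treated values lay together below PBS. Cxcl5 fell 1.75-fold in I80 and 1.88-fold in DI150 (limma adjusted p = 0.00501 and 0.00254), and the treated lines differed by -0.10 on the log2 scale, with a 95% interval from -0.50 to 0.29 (limma adjusted p = 0.653). Cxcl1 stood at 12.1 and 11.7 CPM in PBS, 5.62 and 3.50 CPM in I80, and 12.7 and 7.90 CPM in DI150. The I80 libraries lay below all others, and the DI150 pair straddled PBS. Its fall in I80 was 2.60-fold (limma adjusted p = 0.00254). DI150 differed from PBS by -0.24 on the log2 scale, with a 95% interval from -0.84 to 0.36 (limma adjusted p = 0.440). Cxcl1 was 2.25-fold higher in DI150 than in I80 (limma adjusted p = 0.0122), a call lost without DI150 replicate 1 (0.0865) or I80 replicate 2 (0.088).

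Cxcl2, which shares the stretch with overlapping matches of the Cxcl1 promoter shown above and starts 12.7 kb from Cxcl1, was nearly unread. It had 1 read in PBS, 2 in I80 and 6 in DI150, 5 of them in 1 library, and its groups overlapped. Cxcl16, the membrane-bound chemokine, had 5 and 15 reads in PBS (0.188 and 0.607 CPM), 2 and 0 in I80, and 0 and 1 in DI150. The PBS to I80 ratio of pooled reads was 9.72 (exact 95% interval 2.36 to 85.8) and the PBS to DI150 ratio was 18.4 (2.94 to 762.5). In a fit with no filter on low values, the Cxcl16 differences were -0.70 and -0.75 on the log2 scale (limma adjusted p = 0.0372 and 0.0275). Of its exon bases in GENCODE M21, 18.3% overlap Zmynd15 on the opposite strand, which was at 0.0824 to 0.267 CPM. Cxcl5 (gene 20311), Cxcl1 (gene 14825) and Cxcl2 (gene 20310) lie on chromosome 5 at 90759298 to 90761625, 90891245 to 90893121 and 90903899 to 90905938, and Cxcl16 (gene 66102) lies on chromosome 11 at 70454389 to 70459984.

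Il33, the alarmin gene, stayed at about 1 CPM or less except in 1 PBS library. It had 0.639 and 1.58 CPM in PBS, 0.663 and 0.824 CPM in I80, and 0.761 and 0.572 CPM in DI150. Both treated lines overlapped the PBS range, and with no filter the differences from PBS were -0.31 in I80 and -0.40 in DI150 (limma adjusted p = 0.433 and 0.298). Its receptor gene Il1rl1 stood at 1.05 and 1.37 CPM in PBS, 1.52 and 1.98 CPM in I80, and 0.761 and 0.840 CPM in DI150. That gene was 2.19-fold lower in DI150 than in I80 (limma adjusted p = 0.0158) and passed in neither comparison with PBS (0.115 and 0.112). Il1rap, the shared chain of the IL-33 and IL-1 receptors, rose from 54.1 and 59.0 CPM in PBS to 91.5 and 93.7 CPM in I80 (limma adjusted p = 8.98e-05) and was at 62.1 and 62.9 CPM in DI150 (0.113). Il33 (gene 77125) occupies chromosome 19 from 29925113 to 29960718.

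Read together, 2 of the 6 tested members rose and 4 fell in I80, where 66.4% of all tested genes were called, 32.3% higher and 34.2% lower. In DI150, 2 rose, 3 fell and 1 did not pass, where 68.7% of all tested genes were called, 32.7% higher and 36.1% lower. Between the treated lines 2 were higher in DI150 and none lower, where 43.8% of tested genes were called, 21.9% higher and 21.9% lower. Calls were thus common among all genes, and the counts do not set the members apart. The libraries did not overlap for 6 of the 6 between I80 and PBS, 5 between DI150 and PBS and 2 between the treated lines, against 83.7%, 83.5% and 78.5% of tested genes. The median log2 difference of the 6 was -0.57 in I80 and -0.38 in DI150, beside -0.00205 and -0.0321 over all tested genes. Since Ccl2 and Csf1r are among the 6 only through their high groups, these medians show no shift of the family. The comparisons with PBS share the same 2 PBS libraries.

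**Figure D2:**
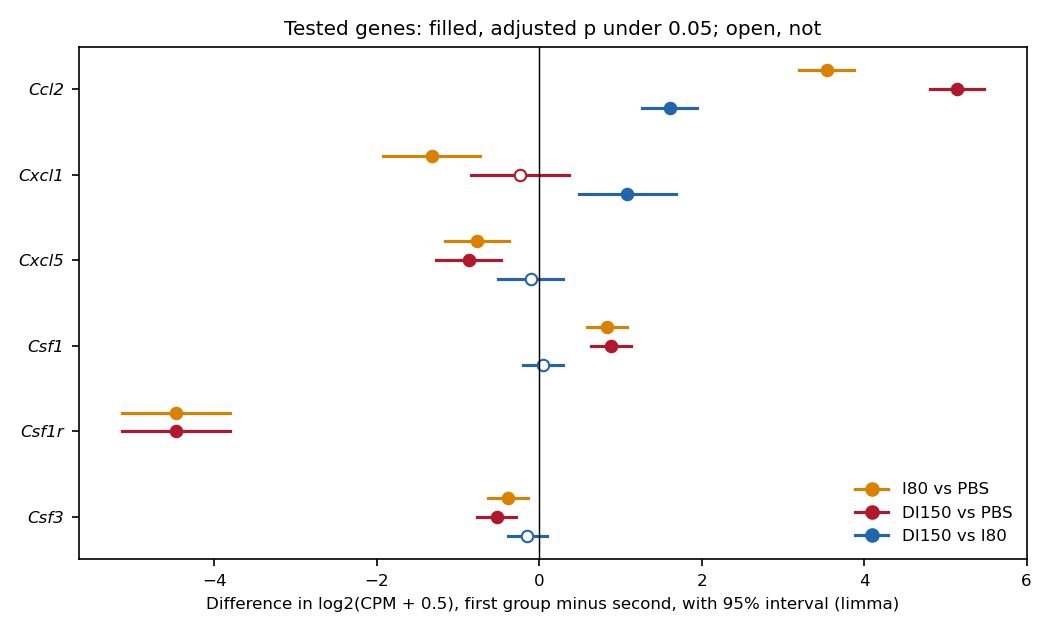
Differences in log2(CPM + 0.5) of the 6 tested genes, first group minus second, with limma 95% intervals. Filled points have an adjusted p under 0.05. Ccl2 is above 0 in all 3 comparisons, and Csf1r, at 0 reads in both treated lines, is left out of the third.

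Per kb of annotated exon (the union over GENCODE M21 transcripts), a rough scale for comparing genes, the leading members were Csf3 and Csf1. For Cxcl1 (1.875 kb) and Cxcl2 (2.068 kb) the union is 1 block over the whole gene, introns included. Their levels per kb may thus be understated, and their places depend on this annotation. In PBS, Csf3 led at 35.7 CPM per kb, ahead of Csf1 at 17.0, Cxcl5 at 12.3, Cxcl1 at 6.33 and Csf1r at 1.92, with no overlap between neighbours in that order. Ccl2 was 9th of 10, at 0.0508 CPM per kb, and its range overlapped that of Csf2 before it. In I80 Csf1 came first at 30.2 CPM per kb and Csf3 followed at 27.4, with their nearest libraries at 29.21 and 29.19. DI150 had Csf1 at 31.4, Csf3 at 24.7 and then Ccl2 at 16.9 CPM per kb. Below them Cxcl5 at 6.54 and Cxcl1 at 5.48 CPM per kb overlapped.

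**Figure D3:**
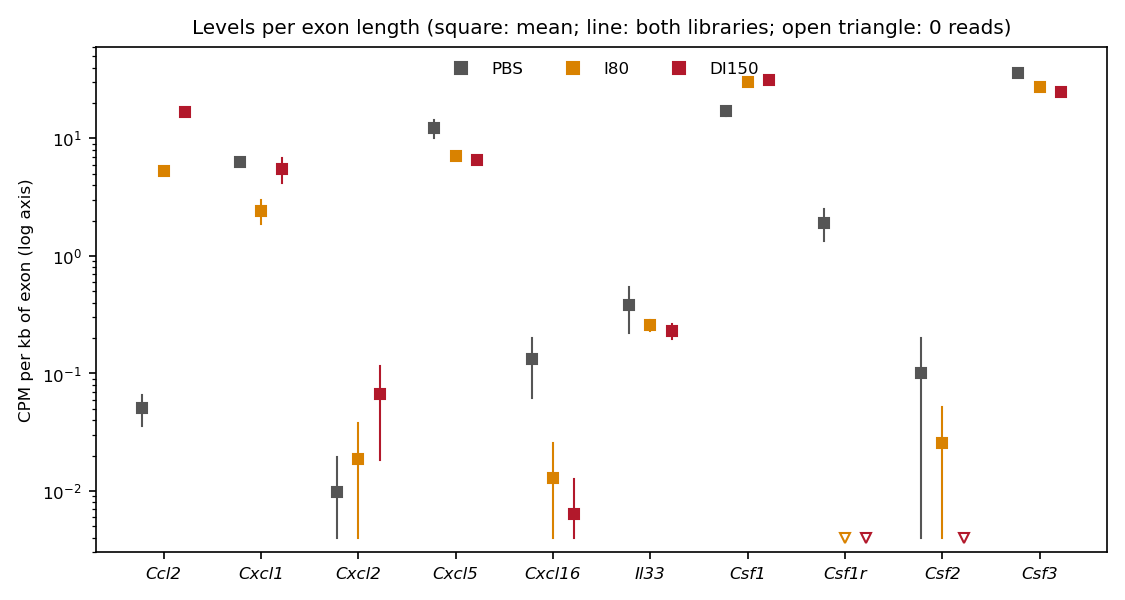
CPM per kb of exon on a log axis for the 10 genes. Squares are means of 2 libraries, lines span both libraries and run to the bottom where 1 library has no read, and open triangles mark groups with no read. Csf1 and Csf3 are the highest in every line, and Ccl2 moves from 0.0508 in PBS to 16.9 in DI150.

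Apart from Csf1r, Il1rl1 and Il1rap, whose values stand above, the receptor genes for the secreted members had few or no reads. Of the 10 receptor genes Ccr2, Ackr1, Ackr2, Cxcr1, Cxcr2, Cxcr6, Csf2ra, Csf2rb, Csf2rb2 and Csf3r, 4 had no read in any library and the others had at most 8 reads over all 6 libraries. The highest single value was 0.165 CPM. Enzymes that shed CXCL16 and CSF1 from the membrane were expressed. Adam10 stood at 195.5 and 230.6 CPM in PBS and fell 1.43-fold in DI150 (limma adjusted p = 0.00123), with 188.3 and 185.3 CPM in I80 (0.0975). Adam17 had 97.9 and 106.6 CPM in PBS and 89.7 to 110.1 CPM in the treated libraries, and passed in none of the 3 comparisons (lowest limma adjusted p = 0.0896).

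In the chemokine clusters, the genes beside a member did not all follow it. Ccl7, which starts 10.1 kb from Ccl2 and encodes another monocyte attractant, had no read in PBS, 5 reads in I80 (0.078 and 0.124 CPM) and 29 in DI150 (0.714 and 0.534 CPM), at least 5.33-fold more in DI150 than PBS against the floor. The next genes, Ccl11 and Ccl12, had 0 CPM in every library except 0.0476 CPM for Ccl12 in 1 DI150 library. Beside Cxcl5, the platelet chemokine gene Ppbp had 2.03 and 4.97 CPM in PBS, 0.429 and 0.453 CPM in I80, and 0.523 and 0.687 CPM in DI150. Ppbp fell 7.94-fold in I80 and 5.79-fold in DI150 (limma adjusted p = 0.00127 and 0.00234). Pf4, the gene after it, had 1 read in PBS, none in I80 and 37 in DI150. Cxcl3, another ELR chemokine gene, had 0.639 and 0.849 CPM in PBS but 0.0763 to 0.238 CPM in the treated libraries. It was under the filter, and with no filter the Cxcl3 differences were -0.91 and -0.93 on the log2 scale (limma adjusted p = 0.00353 and 0.0032). Mthfd2l, the gene beyond Cxcl2, ranged from 9.48 to 11.9 CPM over all 6 libraries.

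**Figure D4:**
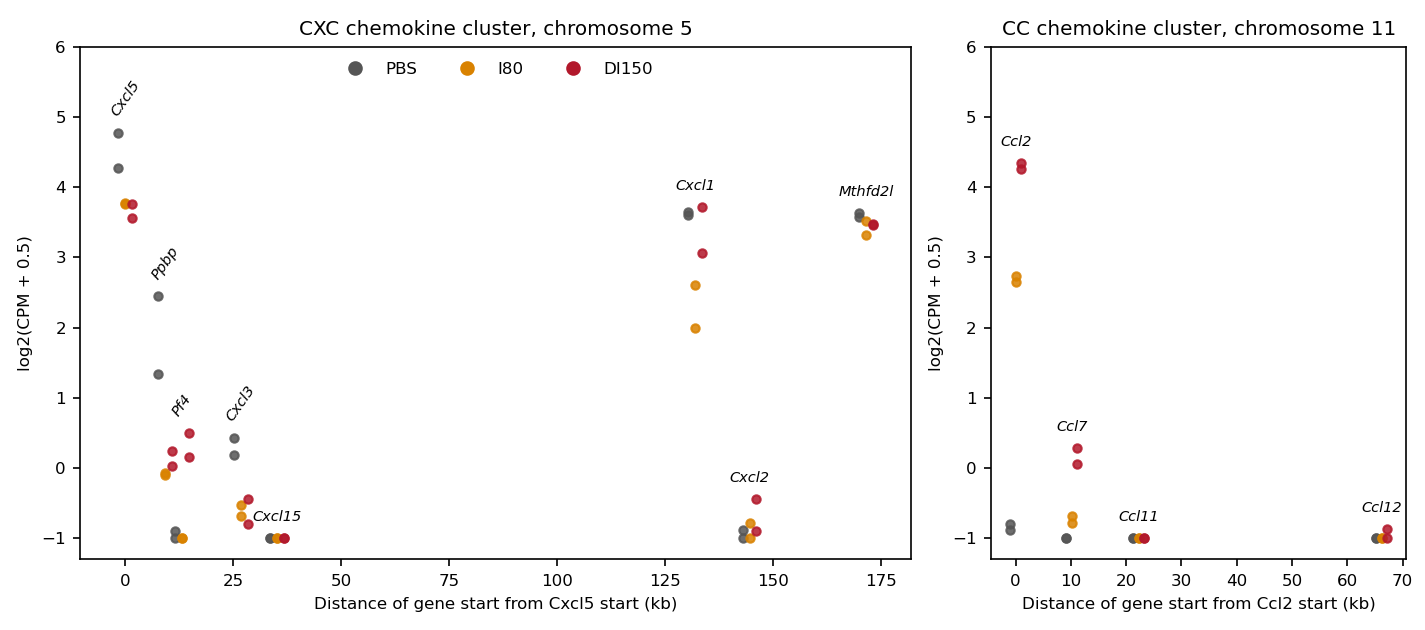
log2(CPM + 0.5) of each library at the genes of the Cxcl5 to Mthfd2l region and of the Ccl2 to Ccl12 region, by the distance in kb of the gene start from the start of Cxcl5 or Ccl2. Points of the 3 groups are set slightly apart along the axis for clarity. Ccl2 and Ccl7 are highest in DI150, while Ppbp and Cxcl5 are highest in PBS.

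Among 33 other chemokine genes, 21 had a read and 6 were tested. In I80, 4 fell and none rose, and in DI150, 4 fell and 1 rose. Among them Ccl9 and Ppbp passed the filter only through PBS and Ccl5 only through DI150, so their calls were partly set by the filter. Among all tested genes, 34.2% fell and 32.3% rose in I80, and 36.1% fell and 32.7% rose in DI150. Ccl9, a macrophage and myeloid attractant, fell from 1.54 and 5.01 CPM in PBS to 0.624 and 0.289 CPM in I80 (limma adjusted p = 0.00654) and 0.0952 and 0.114 CPM in DI150 (0.0014). Ccl25, known for drawing lymphocytes to the gut, fell 4.34-fold in I80 and 1.74-fold in DI150 (limma adjusted p = 0.000141 and 0.0143). Cx3cl1 (fractalkine), a membrane-bound chemokine, fell from 147.6 and 153.6 CPM to 109.5 and 109.3 CPM in I80 and 102.2 and 87.4 CPM in DI150 (limma adjusted p = 0.0019 and 0.000251). Ccl5, a T cell attractant, rose 2.16-fold in DI150 (limma adjusted p = 0.022) and stood at 0.585 and 0.536 CPM in I80 against 0.526 and 1.05 CPM in PBS (0.396). Of 17 other chemokine receptor genes 3 were tested. Cxcr4, the CXCL12 receptor, rose from 0.263 and 1.05 CPM in PBS to 6.59 and 6.92 CPM in I80 and 1.57 and 1.87 CPM in DI150 (limma adjusted p = 0.000146 and 0.0191). The scavenging receptor gene Ackr3 fell 5.61-fold and 57.6-fold, and Ccrl2, which binds chemerin without signalling, fell 8.14-fold and 26.8-fold in I80 and DI150 (limma adjusted p from 1.04e-06 to 2.1e-05).

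NF-kB is known to act upstream of many members, and its list of 34 pathway components was tested in full. In I80, 9 rose and 17 fell, and in DI150, 10 rose and 15 fell, with medians of -0.22 and 0.04 on the log2 scale. Over all tested genes 32.3% rose and 34.2% fell in I80, and 32.7% rose and 36.1% fell in DI150. The inhibitory enzyme gene Tnfaip3 (A20), itself an NF-kB target, fell from 156.3 and 157.7 CPM in PBS to 5.35 and 4.74 CPM in I80 and 6.61 and 5.15 CPM in DI150 (limma adjusted p = 1.36e-07 and 1.24e-07). Traf1, an adaptor of TNF receptors, fell 32.4-fold and 87.2-fold, Bcl3 5.25-fold and 10.2-fold, and the kinase gene Ikbke 7.11-fold and 3.39-fold. Ikbkg (NEMO), the regulatory subunit of the IkB kinase, rose 3.78-fold in I80 and 1.94-fold in DI150, and the kinase gene Tbk1 rose 2.11-fold and 2.18-fold. Traf3, an adaptor that restrains the alternative NF-kB pathway, rose 1.46-fold and 2.11-fold. Irak2, a kinase of IL-1 receptor signalling, rose 1.58-fold in DI150 and had means of 16.7 CPM in I80 and 14.5 CPM in PBS (limma adjusted p = 0.256). Of 20 other NF-kB targets 12 were tested, of which 3 rose and 7 fell in I80 and 4 rose and 6 fell in DI150. These counts stand beside the same shares of all tested genes. The medians of the targets were -1.12 and -0.88 on the log2 scale, beside -0.00205 and -0.0321 over all tested genes. Traf1 above and C3 and Mmp9 below passed the filter only through PBS, so their falls were partly set by it. Tnfaip2 fell from 217.8 and 229.0 CPM to 0.702 and 1.44 CPM in I80 and 1.62 and 1.26 CPM in DI150. The complement gene C3 fell 33.2-fold and 87.5-fold, and the protease gene Plau 8.50-fold and 43.7-fold. Mmp9, a matrix protease gene, fell from a mean of 19.9 CPM in PBS to 0.298 CPM in I80 and 0.0476 CPM in DI150. Sod2, the mitochondrial superoxide dismutase gene, rose 1.64-fold and 1.55-fold, and Bcl2l1, which encodes a survival protein, 1.21-fold and 1.26-fold. Ier3 rose 1.54-fold in DI150 and was not called in I80 (limma adjusted p = 0.0933). Lcn2, an iron-siderophore binding protein of inflamed epithelium, rose from 70.8 and 105.6 CPM to 706.1 and 822.4 CPM in I80 and 158.4 and 216.0 CPM in DI150 (limma adjusted p = 7.86e-06 and 0.00197).

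Chemokine mRNAs are short-lived, and proteins that bind AU-rich elements or stem loops in them set their decay. Of 9 genes of this kind, all tested, 3 rose and 5 fell in I80 and 3 rose and 3 fell in DI150. Calls were made for 66.4% of all tested genes in I80 and 68.7% in DI150. Zfp36 (tristetraprolin) rose from 25.8 and 25.5 CPM in PBS to 42.5 and 35.4 CPM in I80 and 60.7 and 44.8 CPM in DI150 (limma adjusted p = 0.00973 and 0.000613). Its relative Zfp36l1 rose 1.46-fold and 1.70-fold and Rc3h2 (roquin-2) 1.93-fold and 1.74-fold, while Zfp36l2 fell 2.32-fold in I80 and 1.45-fold in DI150. Elavl1 (HuR), a stabiliser of AU-rich mRNAs, fell 1.42-fold and 1.44-fold. Hnrnpd (AUF1) fell 1.51-fold in I80 and was not called in DI150 (limma adjusted p = 0.364). Zc3h12a (regnase-1), a nuclease for cytokine mRNAs, fell 1.91-fold in I80 (limma adjusted p = 0.00228) and was at 9.90 and 7.10 CPM in DI150 against 10.9 and 11.9 in PBS (0.0545).

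**Figure D5:**
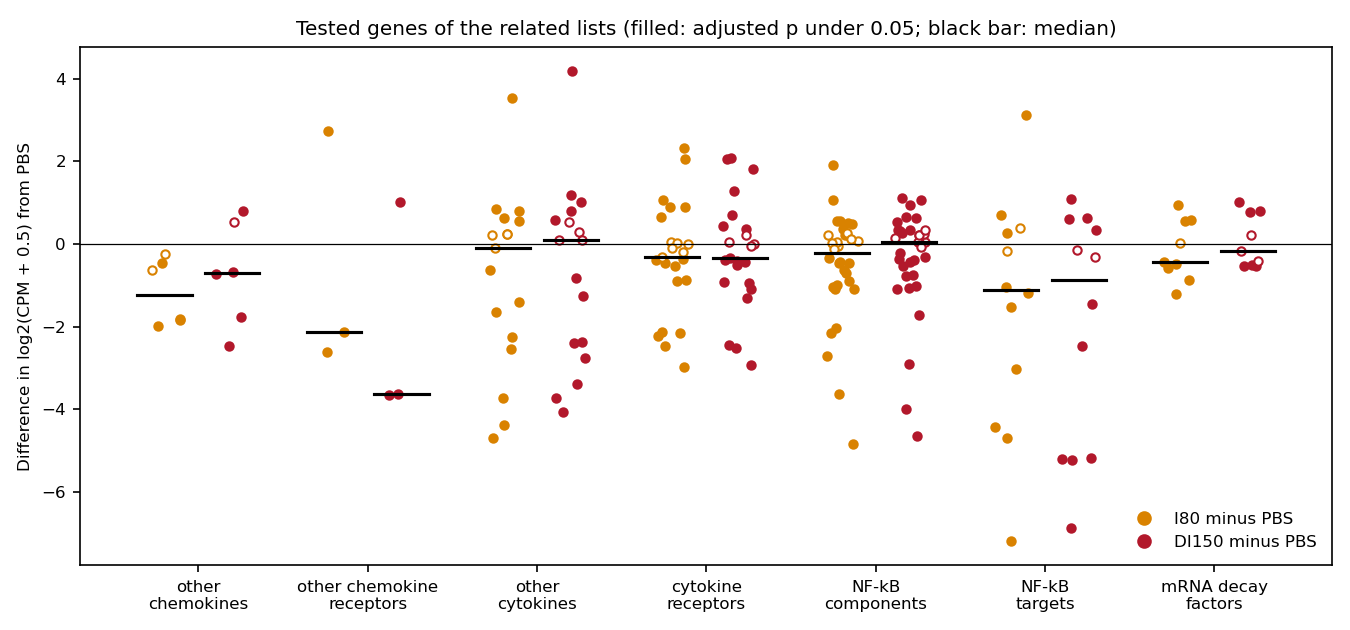
Differences from PBS in log2(CPM + 0.5) of the tested genes in 7 related lists, with I80 and DI150 side by side. Filled points have an adjusted p under 0.05 and black bars are medians. Tnfaip2 is the lowest point, near -7 in both lines, and most lists hold genes on both sides of 0.

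The genes whose profile over the 6 libraries was nearest to that of each tested member are given by the root mean square difference of log2(CPM + 0.5), each gene centred on its own mean. Nearest to Ccl2 were Mpp3 (0.131) and the glutamate receptor gene Grik3 (0.155), both at 2 reads or fewer in PBS. Csf1r was closest to Muc20 (0.0592) and to Plat (0.0731), the gene of tissue plasminogen activator, with 7.70 and 16.5 CPM in PBS and at most 0.0476 CPM in a treated library. Cxcl1 had Sgk1 (0.151), a kinase gene induced by serum and glucocorticoids, and the transcription factor gene Bhlhe40 (0.203). Beside Cxcl5 stood Ubald2 (0.0706) and Naa80 (0.0724), beside Csf1 Rufy2 (0.0385) and Fahd1 (0.0485), and beside Csf3 the insulin receptor gene Insr (0.0364) and Ddx17 (0.0496). With 3 groups of 2 libraries, many genes share such profiles.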

How the data were processed

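Total RNA of 6 libraries (2 each of PBS, I80 and DI150) was ribosome-depleted and made into libraries with a kit that marks strand, per the labels' protocols, and handled with STAR and mm10, per the submitters' processing notes. The sources used here do not give the gene counter, its annotation or whether it used strand. In general, reads of overlapping antisense genes can thus not be told apart. In the treated libraries, however, Csf1r had no read beside 77.3 to 106.5 CPM of Hmgxb3. The authors deposited CPM, with each column summing to 1000000. A DI150 column is numbered 3 where the labels have 1 and 2, and was used as a DI150 replicate. Division by the worth of 1 read gave whole reads, within 1e-06, for 100.0% of the 146724 values. RefSeq GRCm38.p6 named 99.67% of the genes.

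limma 3.58.1 (R 4.3.3, eBayes with a trend) was run on log2(CPM + 0.5), a scale that understates changes of low genes, over the 11428 genes whose mean reached 1 CPM, all 3 groups together, two-sided, with Benjamini-Hochberg adjustment over all tested genes at 0.05. Folds are ratios of mean CPM. Against 0 reads, a floor of 3 reads per library gives a lower bound, and for 1 to 3 reads the ratio of pooled reads has an exact interval. The interval describes counting error only and leaves out the spread between libraries, and the bound carries no error. Copies from PCR are counted as reads, so counting error may be understated. edgeR 4.0.16 and DESeq2 1.42.0 on the recovered reads were alternatives, and edgeR called 7610, 7852 and 4997 genes in the 3 comparisons. Other pseudocounts, filters, scalings, left-out libraries and replicate blocks were tried too. All members are named. Of each related list, at most 4 called genes each way are named, ranked by their larger difference from PBS, along with receptors and shedding enzymes of the members and the 2 nearest profiles per tested member. Of the 3 neighbours on each side, those in the chemokine clusters and beside the Csf genes were picked with their values known. The members and lists were chosen with earlier results of these data known.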

Additional observations from a re-analysis of the deposited data

Results flagged for a closer look

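The effects of the 2 treated lines differed from each other for 2 of the members, by the limma test of DI150 against I80. That is 2 of 6 tested members, where 43.8% of all tested genes were called, so the count does not set the members apart. For Ccl2 the DI150 effect exceeded the I80 effect by 1.61 on the log2(CPM + 0.5) scale (limma adjusted p = 0.000203), with both DI150 libraries above both I80 libraries, and it passed in all 19 alternatives (adjusted p up to 0.00551). For Cxcl1 the difference was 1.09 (limma adjusted p = 0.0122), again with both DI150 libraries above both I80 libraries. It passed in 17 of 19 alternatives, with the 2 exceptions given with the dependence on the processing. The Cxcl1 replicates lay apart within each treated line, at 5.62 and 3.50 CPM in I80 and 12.7 and 7.90 CPM in DI150.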

How the results depend on the processing

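Member values were recomputed 333 times over all alternatives, and 324 kept their direction and their side of the threshold. These include Cxcl2, Cxcl16, Il33 and Csf2, tested only with no filter. Their direction could not change there, and not passing was counted as kept. The Ccl2 calls, the Cxcl5 and Csf1 calls against PBS and the Csf1r calls held in all alternatives in which the gene was tested. Csf1r, at a mean of 3.70 CPM, was not tested with a filter of 5 CPM. With 1 library left out, its group has a lone library, which is assumed to vary like the other groups. Leaving out 1 library ended the Csf3 call in I80 (-0.30 without PBS replicate 2 and -0.29 without I80 replicate 2) and the Cxcl1 call between the treated lines (0.78 without I80 replicate 2 and 0.76 without DI150 replicate 1). Differences that were not called changed sign for Cxcl1 in DI150 against PBS (0.088 without DI150 replicate 3 and -0.56 without DI150 replicate 1) and for Csf1 between the treated lines (-0.059 without DI150 replicate 3 and 0.16 without DI150 replicate 1). With no filter Cxcl16 passed against PBS (-0.70 in I80 and -0.75 in DI150).

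Counts of genes called with 1 library left out ran from 5978 to 7616 in I80 against PBS, 6592 to 7874 in DI150 against PBS, and 2487 to 5972 in DI150 against I80, where all 6 libraries gave 5008. That count fell to 2541 without I80 replicate 1, 2487 without I80 replicate 2, 3012 without DI150 replicate 1 and 3209 without DI150 replicate 3. The replicate numbers were not shown to pair the libraries. For this, the difference between the 2 libraries of a group, first minus second, was correlated across genes between groups. The correlations were 0.02 for PBS and I80, -0.06 for PBS and DI150 and 0.21 for I80 and DI150. With the replicate block 2688 genes were called between the treated lines, and the uncalled Cxcl5 difference there was 0.13. With the second DI150 column as number 2 in the block, 4903 were called. The block ended no call of a member. Depth limits Cxcl2, Cxcl16 and Csf2, which had at most 20 reads in a group.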

Other observations

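Other cytokine genes and their receptors, outside the members and their partners, also differed. Of 44 other cytokine genes 17 were tested, of which 5 rose and 8 fell in each treated line. The share of all tested genes called was 66.4% in I80 and 68.7% in DI150. Il1f9, which encodes the epithelial cytokine IL-36 gamma, had 2 reads in PBS, 5.15 and 6.27 CPM in I80 and 10.3 and 8.55 CPM in DI150 (limma adjusted p = 2.31e-06 and 8.58e-07). Il1rn, the antagonist of the IL-1 receptor, fell from 77.6 and 89.0 CPM in PBS to 3.12 and 2.43 CPM in I80 and 17.2 and 8.05 CPM in DI150 (limma adjusted p = 7.62e-06 and 0.000115). Il24 fell 74.9-fold and 40.4-fold, Clcf1 fell 15.7-fold and 14.8-fold, and Spp1 (osteopontin) fell 4.85-fold and 10.6-fold. Of these cytokine genes, Il24 passed the filter only through PBS and Il1f9 only through the treated lines. Kitl, the stem cell factor gene, rose 1.73-fold and 2.30-fold. Vegfa, the angiogenic factor gene, rose 2.01-fold in DI150 (limma adjusted p = 0.000995) and was not called in I80 (0.223). Lif rose 1.80-fold in I80 (limma adjusted p = 0.00801) and was not called in DI150 (0.0506).

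Of 29 cytokine receptor genes 23 were tested, of which 6 rose and 11 fell in I80 and 7 rose and 12 fell in DI150. Again 66.4% of all tested genes were called in I80 and 68.7% in DI150. Il4ra, a chain of the IL-4 receptor, rose from 37.6 and 50.5 CPM in PBS to 182.6 and 185.0 CPM in I80 and 194.1 and 177.4 CPM in DI150. Tnfrsf11a, the RANK gene, rose 1.93-fold and 4.47-fold, and Il15ra 2.19-fold and 2.56-fold. Lifr, the receptor gene of the Lif product, rose 22.6-fold and 14.3-fold from a mean of 0.116 CPM in PBS. Il18rap and Il18r1, which encode the IL-18 receptor chains, fell 8.10-fold and 4.63-fold in I80 and 5.37-fold and 8.27-fold in DI150. Il20rb fell 6.60-fold and 6.91-fold, and Il11ra1 6.50-fold and 2.36-fold. Folds with no p beside them have a limma adjusted p under 0.05 in I80 and DI150 against PBS.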
